A study of Homo sapiens with 6 samples.

Results

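The 10 genes described here encode the chains of ferritin and 8 further proteins of the antioxidant response that are known targets of the transcription factor NRF2. They are FTL, FTH1, HMOX1, NQO1, SLC7A11, GCLC, GCLM, TXNRD1, SRXN1 and SQSTM1. Members were chosen by gene symbol, and all 10 were found among the 25368 symbols of each of the 2 expression tables. The high level of FTL in several libraries was known when the genes were chosen, so that level is given as a description. The libraries came from MRC5, a line of human embryonic lung fibroblasts immortalised with hTERT, and each of the 6 conditions has 1 library. In the JUN overexpression experiment, cells were infected for 2 h with adenovirus carrying an empty vector (the control), FLAG-tagged JUN WT or FLAG-tagged JUN AA, in which both JNK phosphorylation sites are alanine, and were then cultured for 3 days. In the JNKi experiment, MRC5 cells were compared with induced CAFs (iCAFs), kept for 7 days in medium conditioned by MDA-MB-231 breast cancer cells, and with iCAFs treated with 1 µM JNKi for 48 h (iCAFs+JNKi). JNKi is a selective inhibitor of the JNK kinases that phosphorylate JUN. All infected libraries, the control included, carry adenovirus, and the conditioned medium was collected without serum, so the effects of tumour cell products and of the missing serum cannot be told apart in iCAFs. The labels do not say whether the iCAFs library had received the vehicle.

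NRF2, encoded by NFE2L2, is held at a low level by KEAP1, which brings it to a ubiquitin ligase. When oxidants or electrophiles modify KEAP1, NRF2 accumulates, pairs with a small MAF protein and binds antioxidant response elements (AREs). Its targets store iron, break down haem, supply glutathione and regenerate thioredoxin, and BACH1 represses several of them at the same elements. Ferritin is a shell of light chains (FTL) and heavy chains (FTH1), and its synthesis is also set at translation by iron, which mRNA levels do not show.

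RefSeq promoter windows, running from 250 bases before a gene's start to 50 bases after it, were at hand for 7 of the 10 genes, as 10 windows because TXNRD1 and SQSTM1 have several starts. FTH1, HMOX1 and SLC7A11 had none. Windows were searched on both strands for the ARE core TGACNNNGC, for the AP-1 sites TGAGTCA and TGACTCA that JUN dimers bind, for CCAAT and for TATAAA. The ARE core and TGACTCA share their first 4 letters and can overlap. The ARE core was in 3 of the 10 windows, belonging to GCLM and TXNRD1, and in 13.3% of the 35116 windows of all genes. No AP-1 site was in the 10 windows, against 4.95% of all windows, and this says only that these letters are not there. The bases before the start are shown for GCLM and TXNRD1, which hold the ARE core, and for FTL, the gene with the highest level, on the strand of the gene. Capitals mark matches to the ARE core on either strand in GCLM and TXNRD1 and to CCAAT on either strand in FTL and TXNRD1. By exact match on GRCh37, the build that is also called hg19, the FTL bases are chr19:49468316-49468565 on the plus strand and the GCLM bases chr1:94374987-94375236 on the minus strand. The TXNRD1 bases are chr12:104609307-104609556 for the upstream start and chr12:104680560-104680809 for the downstream start, both on the plus strand.
GCLM: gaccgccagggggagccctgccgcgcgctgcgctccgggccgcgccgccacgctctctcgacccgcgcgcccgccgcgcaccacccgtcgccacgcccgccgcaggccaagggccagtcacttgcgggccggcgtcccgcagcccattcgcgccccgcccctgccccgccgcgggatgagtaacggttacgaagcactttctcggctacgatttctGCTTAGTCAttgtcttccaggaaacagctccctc
TXNRD1, upstream start: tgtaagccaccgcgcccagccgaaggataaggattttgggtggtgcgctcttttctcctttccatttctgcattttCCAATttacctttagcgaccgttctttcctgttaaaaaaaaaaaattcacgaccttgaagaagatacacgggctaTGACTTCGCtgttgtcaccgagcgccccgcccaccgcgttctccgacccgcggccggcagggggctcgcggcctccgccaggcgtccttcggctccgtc
TXNRD1, downstream start: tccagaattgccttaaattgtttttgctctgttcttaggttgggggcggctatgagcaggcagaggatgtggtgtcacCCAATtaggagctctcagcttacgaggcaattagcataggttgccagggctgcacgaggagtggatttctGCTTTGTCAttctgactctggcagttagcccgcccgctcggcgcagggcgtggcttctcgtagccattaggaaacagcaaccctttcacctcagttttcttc
FTL: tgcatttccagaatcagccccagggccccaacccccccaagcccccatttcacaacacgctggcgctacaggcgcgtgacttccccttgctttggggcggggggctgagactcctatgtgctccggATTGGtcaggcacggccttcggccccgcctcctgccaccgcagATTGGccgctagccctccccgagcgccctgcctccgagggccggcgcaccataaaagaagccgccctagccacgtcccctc
In GCLM the match lies on the opposite strand and ends 25 bases before the start, where the printed strand reads GCTTAGTCA. In TXNRD1 it lies 90 bases before the upstream start as TGACTTCGC and 93 bases before the downstream start as GCTTTGTCA. A further match in TXNRD1 spans the upstream start itself and is not fully shown. FTL held no ARE core in its window, and its capitals are a pair of CCAAT boxes read on the opposite strand, a common promoter element present in 34.6% of all windows.

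Values are FPKM, fragments scaled to exon length and to the mapped fragments of a library, which allow levels to be compared between genes of a library. Differences between libraries are given on the log2(FPKM + 1) scale, which understates the change of low genes, and a gene is called 2-fold higher or lower at a difference of 1 in size. No error can be given from single libraries, and no test was made. The number of reads is unknown. In bulk RNA fewer cells with a transcript and less transcript per cell cannot be told apart. JUN was at 25.5 FPKM with the empty vector, 4543 FPKM with JUN WT and 291 FPKM with JUN AA. The JUN WT and JUN AA libraries thus differ in JUN level as well as in the phosphorylation sites, and the effects of these cannot be told apart. In MRC5, iCAFs and iCAFs+JNKi, JUN was at 57.1, 55.3 and 21.1 FPKM. All 9 fibroblast markers were at 1 FPKM or more in every library, with summed levels from 4656 to 6273 FPKM in the JUN overexpression table and from 3993 to 6161 FPKM in the JNKi table. This list moved in the same comparisons as the members. With JUN WT 7 of the 9 were below the control at a list median of -0.57, against 39.1% of all genes tested and a median of 0.15. COL1A1, LUM and PDGFRB were 2-fold lower, as were 3.39% of all genes. With JUN AA 6 were below the control, against 51.4% of all genes. COL3A1 and PDGFRB were 2-fold lower there and LUM was 2-fold higher, against 3.77% and 5.29% of all genes. In iCAFs 8 of 9 were below MRC5 at a median of -0.40, against 59.4% of all genes and a median of -0.061. DCN and S100A4 were 2-fold lower, as were 1.71% of all genes. After JNKi the direction was the opposite, with 8 of 9 above iCAFs at a median of 1.07, against 37.4% of all genes and a median of -0.10. COL1A1, COL3A1, DCN, LUM and PDGFRB were 2-fold higher than in iCAFs, as were 2.25% of all genes. Against MRC5, 6 of 9 were higher with JNKi and 3 lower, at a median of 0.70, where 33.6% of all genes were higher, at a median of -0.16. COL1A1, COL3A1, LUM and PDGFRB were 2-fold higher than in MRC5 and VIM was 2-fold lower, against 3.28% and 3.53% of all genes. The 6 epithelial markers summed to 57.1 FPKM in the control, where KRT18 was highest, and to 21.7 and 19.9 FPKM with JUN WT and JUN AA, KRT18 being 2-fold lower in both and KRT8 in JUN WT. Their sum lay between 33.2 and 40.8 FPKM in the JNKi table, and CDH1 was listed at 0 in all 6 libraries. Of the 5 leukocyte markers, CD68 alone reached 1 FPKM, with 32.6 FPKM in the control and 85.7 FPKM in JUN WT, and PTPRC, which marks leukocytes as a class, was at no more than 0.0148 FPKM in both. The 3 endothelial markers summed to at most 0.369 FPKM. Of the 3 erythroid markers, HBA1 and HBB were low but listed in JUN AA, where the list summed to 4.18 FPKM against 0.613 FPKM in the control and 0 in the other libraries. The part of these genes in the results below was not tested. FPKM sums were 494603 with the empty vector, 498514 with JUN WT and 613184 with JUN AA, and from 359944 to 399532 in the JNKi table.

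Ferritin mRNA was the main part of the group in every library. FTL and FTH1 made up between 88.8% and 97.2% of the summed FPKM of the 10 genes, and between 1.03% and 3.50% of the FPKM of all genes. FTL, the ferritin light chain gene on chromosome 19 of GRCh37 from 49468566 to 49470136, was at 14094 FPKM with the empty vector, 11756 FPKM with JUN WT and 15033 FPKM with JUN AA. No gene was higher in any of these 3 libraries. In the JNKi table FTL was at 4175 FPKM in MRC5 cells, where it was also the highest gene, then 2191 FPKM in iCAFs and 1756 FPKM after JNKi, where it held ranks 8 and 12. The order was thus MRC5, iCAFs and then iCAFs+JNKi, and the step from MRC5 to iCAFs was the larger. FTL differed by -0.93 in iCAFs against MRC5, a size reached by 4.28% of the 11780 genes tested, and by -1.25 in iCAFs+JNKi against MRC5. Among the 50 genes with the highest mean level in this table, FTL had the lowest difference in iCAFs against MRC5, and the median of the 50 was -0.073. In JUN WT against control the FTL difference was -0.26, a size reached by 65.3% of 10311 genes. In JUN AA it was 0.093, and its sign changed to -0.22 with FPKM rescaled to the same sum.

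FTH1, the ferritin heavy chain gene, whose product oxidises iron for storage, lies on chromosome 11 from 61727190 to 61735106. Its level was nearly the same in the 3 libraries of the JNKi table, at 2087 FPKM in MRC5 cells, then 1924 FPKM in iCAFs and 1952 FPKM after JNKi. In the other table it was at 3206 FPKM with the empty vector, 3196 FPKM with JUN WT and 1865 FPKM with JUN AA, so JUN AA alone was lower. The difference in JUN AA against control was -0.78, and 6.58% of genes lay lower. The light and heavy chains thus differed unequally. The ratio of FTL to FTH1 FPKM within a library, which no scaling of that library alters, was 4.40 with the empty vector, 3.68 with JUN WT and 8.06 with JUN AA. It was 2.0002 in MRC5, 1.14 in iCAFs and 0.899 after JNKi, the only library in which FTH1 exceeded FTL. The ferritin genes have many processed copies in the genome, and the division of shared reads among them is not known. The 3 rows of such pseudogenes in each table reached at most 0.211 FPKM. FTH1 also shares 63.2% of its annotated exon bases with BEST1 on the opposite strand, and the library kit named in the labels was used with no stated strand setting, but BEST1 was at no more than 1.33 FPKM in any library.

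**Figure D1:**
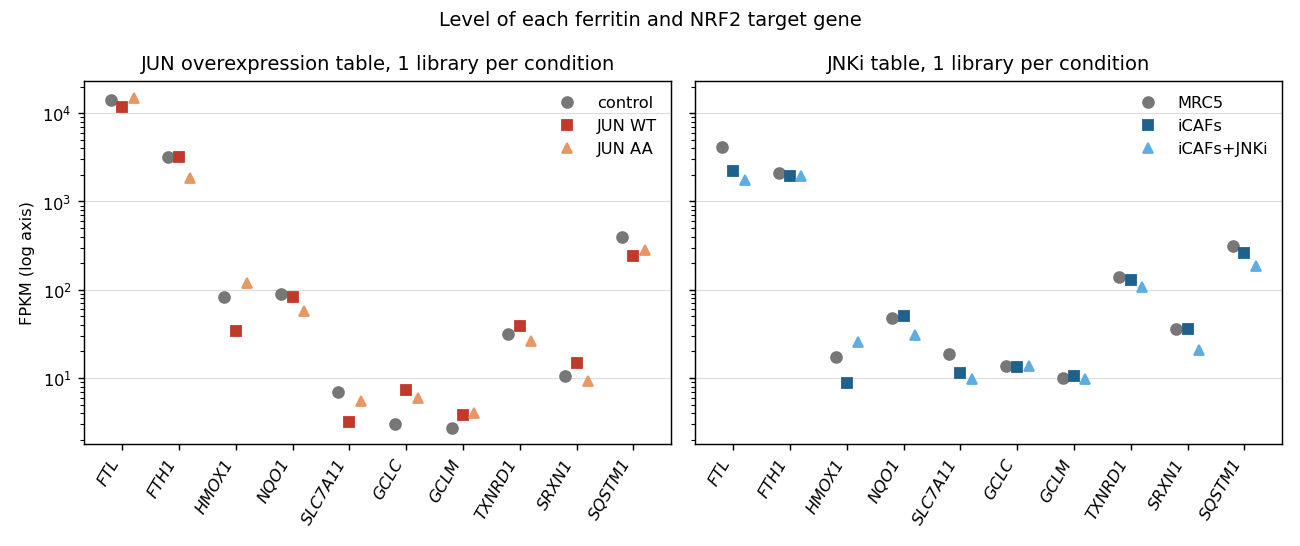
FPKM (log axis) of the 10 genes, with 1 point per library, in the JUN overexpression table (left) and the JNKi table (right). FTL and FTH1 lie above the other 8 genes in all 6 libraries, and the lowest HMOX1 points of the panels are JUN WT on the left and iCAFs on the right.

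HMOX1 held 3 of the 5 differences of the group that passed 2-fold. It encodes haem oxygenase 1, which breaks haem down to biliverdin, carbon monoxide and iron, and lies on chromosome 22 from 35776354 to 35790207. HMOX1 was at 82.6 FPKM with the empty vector, 34.3 FPKM with JUN WT and 118 FPKM with JUN AA. JUN WT was thus the low library, with a difference of -1.24 from the control and of -1.76 from JUN AA, and 1.86% and 0.689% of genes lay lower. In the JNKi table HMOX1 was at 17.2 FPKM in MRC5 cells, then 8.85 FPKM in iCAFs and 25.8 FPKM after JNKi. Here iCAFs was the low library, with a difference of -0.88 from MRC5, and iCAFs+JNKi lay 1.44 above iCAFs and 0.56 above MRC5. Its difference from iCAFs stood at percentile 98.9 of all genes tested. The signs of all 6 HMOX1 differences were the same under each of the 5 alternative settings.

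NQO1, which reduces quinones and lies on chromosome 16 from 69740899 to 69760571, did not follow HMOX1. Its levels were 90.0 FPKM with the empty vector, 82.9 FPKM with JUN WT and 57.2 FPKM with JUN AA. In the JNKi table they were 47.6 FPKM in MRC5 cells, then 49.9997 FPKM in iCAFs and 30.6 FPKM after JNKi. JUN AA and iCAFs+JNKi were thus the low libraries for NQO1, whereas they were the high ones for HMOX1. The NQO1 difference was -0.64 in JUN AA against control and -0.69 in iCAFs+JNKi against iCAFs, and 10.1% and 4.86% of genes lay lower. NQO1 shares 19.4% of its exon bases with a gene on the opposite strand.

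TXNRD1 and SRXN1 shared with NQO1 their lowest libraries, JUN AA and iCAFs+JNKi. TXNRD1, cytosolic thioredoxin reductase on chromosome 12 from 104609557 to 104744085, was at 31.3 FPKM with the empty vector, 38.9 FPKM with JUN WT and 26.2 FPKM with JUN AA. It was at 140 FPKM in MRC5 cells, then 128 FPKM in iCAFs and 107 FPKM after JNKi. SRXN1, sulfiredoxin, which restores overoxidised peroxiredoxins, lies on chromosome 20 from 627259 to 633844. Its levels were 10.6 FPKM with the empty vector, 14.9 FPKM with JUN WT and 9.16 FPKM with JUN AA. SRXN1 was at 35.8 FPKM in both MRC5 and iCAFs and at 20.7 FPKM in iCAFs+JNKi. For both genes JUN WT was highest and JUN AA lowest in one table, and iCAFs+JNKi lowest in the other. Between JUN WT and JUN AA the differences were 0.53 for NQO1, 0.55 for TXNRD1 and 0.65 for SRXN1, against a median of 0.18 over all genes. In iCAFs+JNKi against iCAFs they were -0.69, -0.26 and -0.77 in the same order, against a median of -0.10. The TXNRD1 difference of -0.26 was common, as 30.3% of genes lay lower. SRXN1 shares 90.7% of its exon bases with a further annotated gene on the same strand, and how reads were divided between them is not known.

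**Figure D2:**
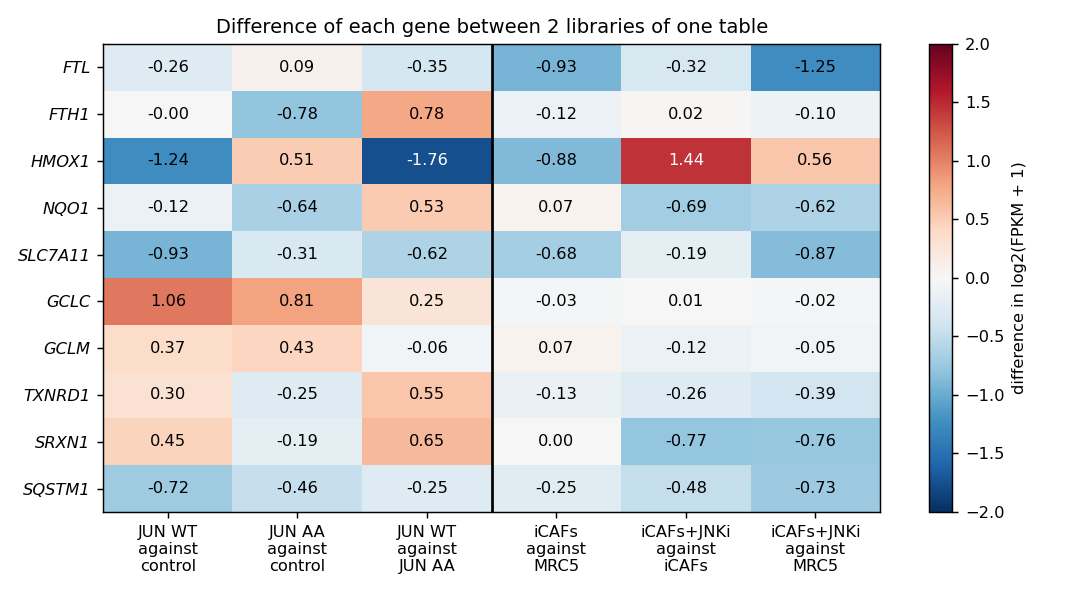
Difference in log2(FPKM + 1) for each of the 10 genes (rows) in 6 comparisons (columns), with a line between the 2 tables. Blue is lower and red is higher in the library named first, and the HMOX1 row runs from -1.76 in JUN WT against JUN AA to 1.44 in iCAFs+JNKi against iCAFs.

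The genes for glutathione supply differed among themselves. SLC7A11 encodes the transport subunit of the cystine and glutamate exchanger and lies on chromosome 4 from 139085251 to 139163503. It was at 6.97 FPKM with the empty vector, 3.20 FPKM with JUN WT and 5.45 FPKM with JUN AA, and at 18.6 FPKM in MRC5 cells, then 11.3 FPKM in iCAFs and 9.72 FPKM after JNKi. SLC7A11 was thus highest in the reference library of each table, with differences of -0.93 in JUN WT against control and -0.68 in iCAFs against MRC5. GCLC, the catalytic subunit of glutamate-cysteine ligase on chromosome 6 from 53362139 to 53481768, was at 2.98 FPKM with the empty vector, 7.31 FPKM with JUN WT and 5.97 FPKM with JUN AA. Both JUN libraries were above the control, by 1.06 and 0.81, and 8.54% and 14.5% of genes differed by as much in either direction. GCLM, the modifier subunit on chromosome 1 from 94350755 to 94375012, had 2.74, 3.84 and 4.05 FPKM in these libraries. The GCLM differences from control were 0.37 and 0.43, below those of GCLC. In the JNKi table both subunits were nearly level. GCLC lay between 13.4 and 13.7 FPKM and GCLM between 9.66 and 10.6 FPKM over the 3 libraries. The GCLM to GCLC ratio of FPKM lay between 0.713 and 0.789 there, and was 0.918 with the empty vector, 0.525 with JUN WT and 0.678 with JUN AA. SLC7A11 shares 8.97% of its exon bases with an antisense gene, and GCLC shares 3.54% with an antisense gene and 6.14% with a gene on the same strand.

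SQSTM1 encodes p62, an autophagy receptor that also binds KEAP1, and lies on chromosome 5 from 179233398 to 179265078. After the ferritin genes it was the next highest of the group in all 6 libraries. Its levels were 394 FPKM with the empty vector, 239 FPKM with JUN WT and 285 FPKM with JUN AA, and 310 FPKM in MRC5 cells, then 260 FPKM in iCAFs and 186 FPKM after JNKi. SQSTM1 was lower than the control in both JUN libraries, by 0.72 and 0.46 on the log2 scale, and lowest with JNKi in the other table. The order of JUN WT and JUN AA was not stable, since their difference of -0.25 became 0.046 with rescaled FPKM. Of its exon bases 21.0% are shared with MRNIP and 1.39% with MGAT4B, both on the opposite strand.

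As a group the 10 genes had no common direction with JUN. With JUN WT, 4 of them lay above the control and 6 below, with a median of -0.061 against 0.15 over all genes tested. Of all genes 60.9% were higher there. Of the 10, GCLC was 2-fold higher and HMOX1 2-fold lower, where 10.3% of all genes differed 2-fold either way, 6.92% upward and 3.39% downward. GCLC fell below this limit when differences were centred on the median gene or scaled by the upper quartile. With JUN AA, 4 lay above the control and 6 below, at a median of -0.22 against -0.015, where 51.4% of all genes were lower. Of the 10, 0 passed 2-fold, against 9.06% of all genes, 5.29% upward and 3.77% downward. From JUN AA to JUN WT, 5 were higher and 5 lower, where 62.5% of all genes were higher. HMOX1, which was lower, was the only member past 2-fold, against 12.3% of all genes, 6.65% upward and 5.61% downward. In iCAFs against MRC5, 3 were higher and 7 lower, with a median of -0.12 against -0.061, where 59.4% of all genes were lower. Of the 10, 0 were 2-fold different, against 3.65% of all genes, 1.94% upward and 1.71% downward. After JNKi, 3 members exceeded their iCAFs level and 7 were below it, with a median of -0.23 against -0.10. Of all genes 62.6% were lower in this comparison. HMOX1, which was higher, was the only member past 2-fold, against 4.22% of all genes, 2.25% upward and 1.97% downward. Between MRC5 and iCAFs+JNKi, 9 of 10 were lower, with HMOX1 the exception, and the median was -0.50 against -0.16. Of all genes 66.4% were lower in that comparison, and FTH1, GCLC and GCLM turned higher when differences were centred on the median gene. FTL, which was lower, was the only member past 2-fold there, against 6.81% of all genes, 3.28% upward and 3.53% downward. Comparisons within a table share libraries and are not independent. Counts this small do not settle whether the shares of members differ from those of all genes.

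Of the mRNAs of 12 NRF2 regulators, 1 was 2-fold higher in iCAFs than in MRC5, against 1.94% of all genes. In JUN AA against control 1 was 2-fold higher, against 5.29% of all genes. Smaller differences included 0.77 for NFE2L3 and 0.68 for BTRC in JUN WT against control. NFE2L1 differed by -0.62 in JUN AA against control and MAFK by 0.84 in iCAFs against MRC5. NFE2L2, which encodes NRF2, was at 12.6 FPKM with the empty vector, 12.2 FPKM with JUN WT and 16.0 FPKM with JUN AA, and at 23.4, 27.5 and 29.8 FPKM in MRC5, iCAFs and iCAFs+JNKi. KEAP1 lay between 26.5 and 30.7 FPKM in the JUN overexpression table and between 26.5 and 29.2 FPKM in the JNKi table. BACH1 was at 1.64 FPKM with the empty vector, 1.28 FPKM with JUN WT and 0.845 FPKM with JUN AA, and between 8.29 and 10.3 FPKM in the JNKi table. The BACH1 differences were -0.21 in JUN WT against control, -0.52 in JUN AA against control and 0.30 in JUN WT against JUN AA. They were -0.059 from MRC5 to iCAFs and -0.23 from iCAFs to iCAFs+JNKi. BACH1 was thus lowest in JUN AA and iCAFs+JNKi, where HMOX1 was highest. In JUN WT against control and in iCAFs against MRC5 both genes were lower, although the BACH1 sign in iCAFs was not the same in every setting. The part of BACH1 in the HMOX1 levels was not tested. Of the 12 regulators, all of which had a mean of 1 FPKM or more, MAFF was the only one 2-fold higher in iCAFs, from 18.8 to 49.9 FPKM, and it was at 33.9 FPKM with JNKi. MAFF is a small MAF partner. RBX1, a ligase subunit, was the only one 2-fold higher in JUN AA, from 66.3 to 143 FPKM, and its difference of 1.10 became 0.79 with rescaled FPKM. No regulator was 2-fold different in the other 4 comparisons, and 11 of 12 were lower with JNKi than in iCAFs, at a median of -0.25, where 62.6% of all genes were lower, at a median of -0.10.

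Among 39 other NRF2 targets, 34 passed the filter. With JUN WT 23 of them exceeded the control and 11 did not, where 60.9% of all genes were higher. The list median was 0.22 against 0.15 over all genes. Of the 34, 7 were 2-fold higher and 0 were 2-fold lower, against 6.92% and 3.39% of all genes. AKR1C1, an aldo-keto reductase, went from 11.2 to 63.9 FPKM, AKR1C2 from 1.13 to 7.97 FPKM and CBR3, a carbonyl reductase, from 2.28 to 7.19 FPKM. The AKR1C genes are near-identical copies, so their values are uncertain. AKR1B1, aldose reductase, went from 377 to 992 FPKM, BLVRA, biliverdin reductase A, from 11.8 to 48.2 FPKM, PRDX1, a peroxiredoxin, from 196 to 408 FPKM and MGST1, a microsomal glutathione transferase, from 144 to 300.2 FPKM. PRDX1 and MGST1 fell below 2-fold when differences were centred. With JUN AA 18 exceeded the control and 16 did not, where 48.6% of all genes were higher. Of the 34, 6 were 2-fold higher and 1 was 2-fold lower, against 5.29% and 3.77% of all genes. AKR1C1 was at 35.8 FPKM, AKR1C2 at 4.83 FPKM and CBR3 at 5.59 FPKM there, so these 3 were 2-fold above the control in both JUN libraries, although CBR3 in JUN AA fell below 2-fold in some settings. TXN, thioredoxin, was at 318 FPKM with the empty vector, 342 FPKM with JUN WT and 900 FPKM with JUN AA, and GLRX, glutaredoxin, was at 176 FPKM in JUN AA against 59.5 FPKM in the control. AKR1B10 went from 0.877 to 4.09 FPKM in JUN AA, and EPHX1, an epoxide hydrolase, from 35.9 to 14.4 FPKM. Between JUN WT and JUN AA, 3 targets were 2-fold higher in JUN WT (AKR1B1, GSTM3 and BLVRA), against 6.65% of all genes. Another 3 were 2-fold lower (AKR1B10, GSTA4 and TXN), against 5.61% of all genes. GSTM3 and BLVRA did not pass this limit in every setting.

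In iCAFs against MRC5, where 59.4% of all genes were lower, the same list had 7 genes higher and 27 lower. Its median was -0.22 against -0.061 over all genes. AKR1B1 was the only one 2-fold higher, from 300 to 998 FPKM, and BLVRB, biliverdin reductase B, and AKR1C1 were 2-fold lower, from 43.4 to 15.1 FPKM and from 8.24 to 3.43 FPKM, although AKR1C1 did not keep this in every setting. All genes were 2-fold higher at 1.94% and lower at 1.71%. JNKi left 14 targets above their iCAFs level and 20 below it, where 62.6% of all genes were lower. The list median was -0.086 against -0.10 over all genes. AKR1B1 was the only target past 2-fold, at 445 FPKM with JNKi, where 4.22% of all genes were past it. AKR1B1 was thus high in JUN WT and in iCAFs, the libraries in which HMOX1 was low. In iCAFs+JNKi against MRC5, BLVRA, BLVRB, CBR3 and OSGIN1 were 2-fold lower, against 3.53% of all genes. BLVRA went from 36.9 to 13.7 FPKM and OSGIN1, a growth inhibitor induced by oxidative stress, from 8.22 to 1.82 FPKM. CBR3 did not pass this limit in every setting.

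Of 20 genes for iron handling, 13 passed the filter with JUN and 14 in the JNKi experiment. SLC40A1, ferroportin, the exporter of iron from cells, was at 12.6 FPKM with the empty vector, 2.58 FPKM with JUN WT and 4.52 FPKM with JUN AA. It was at 2.38 FPKM in MRC5 cells, then 1.66 FPKM in iCAFs and 8.25 FPKM after JNKi. SLC40A1 was therefore lowest in JUN WT and in iCAFs, as was HMOX1, but unlike HMOX1 it was also 2-fold lower in JUN AA than in the control, with a difference of -1.30. The importers SLC39A14 and SLC11A2 ran the other way. SLC39A14 went from 3.94 to 10.03 FPKM in JUN WT and from 14.6 to 54.7 FPKM in iCAFs, and was at 22.5 FPKM with JNKi. SLC11A2 went from 2.87 to 8.24 FPKM in JUN WT and from 13.2 to 29.3 FPKM in iCAFs, and was at 22.5 FPKM with JNKi. In iCAFs+JNKi against MRC5 both importers and SLC40A1 were higher, SLC39A14 by 0.59, SLC11A2 by 0.72 and SLC40A1 by 1.45. Among other genes for iron uptake, STEAP3 differed by -0.39, TFRC by 0.27 and SLC39A8 by 0.86 in iCAFs against MRC5. NCOA4, the receptor that takes ferritin to lysosomes, was at 13.5 FPKM in the control and 30.5 FPKM in JUN WT, a difference that fell just below 2-fold when centred. TFRC, the transferrin receptor, was 2-fold higher in JUN WT than in JUN AA, at 17.6 against 8.23 FPKM, but not in every setting. With JUN WT 11 of the 13 exceeded the control, at a median of 0.33 against 0.15 over all genes, of which 60.9% were higher. Of the 13, 3 were 2-fold higher and 1 was 2-fold lower there, against 6.92% and 3.39% of all genes.

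**Figure D3:**
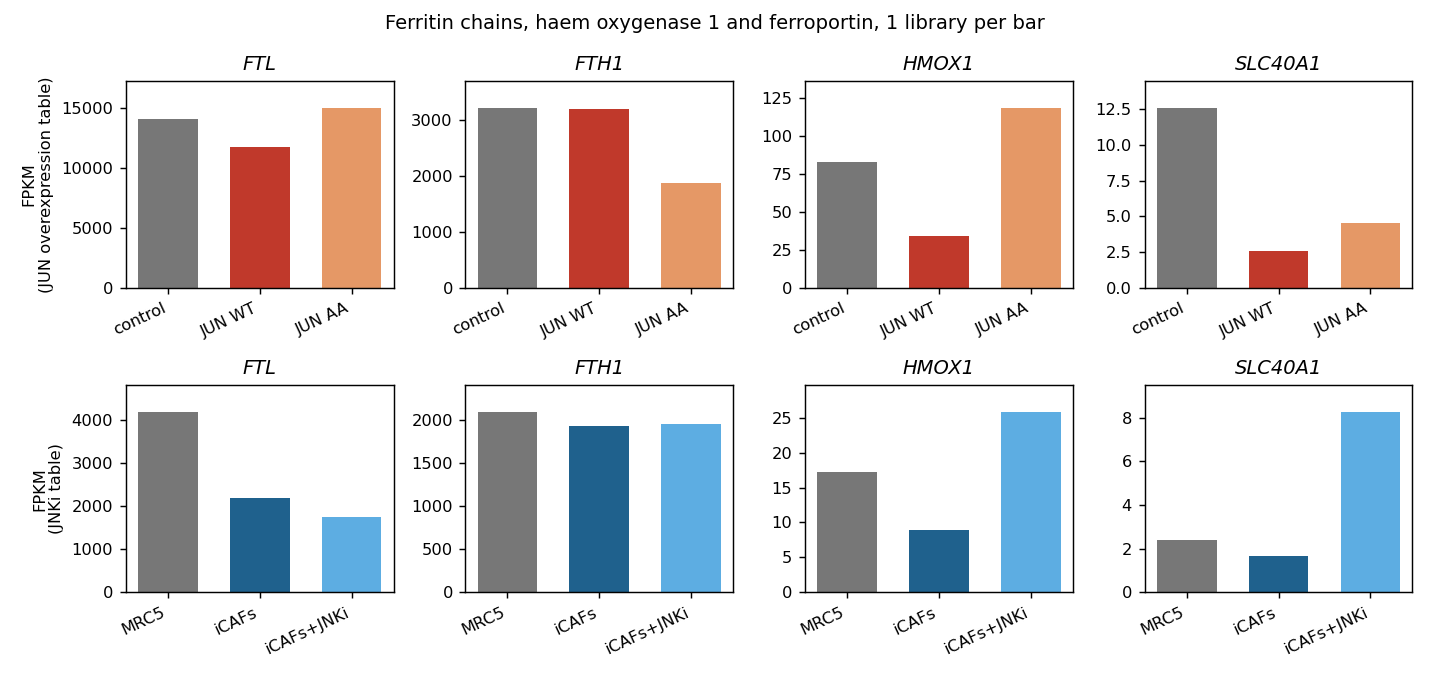
FPKM of FTL, FTH1, HMOX1 and SLC40A1 (columns), with 1 bar per library, in the JUN overexpression table (top) and the JNKi table (bottom). HMOX1 and SLC40A1 have their lowest bars in JUN WT and in iCAFs, while the FTH1 bars of the JNKi table lie between 1924 and 2087 FPKM.

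The 16 other antioxidant enzymes all passed the filter. With JUN WT 5 exceeded the control and 11 did not, where 60.9% of all genes were higher. PRDX3, a mitochondrial peroxiredoxin, was the only one of the 16 past 2-fold, from 28.7 to 79.2 FPKM, against 10.3% of all genes. None was past 2-fold in JUN AA against control, against 9.06% of all genes. GPX1, at 3066 FPKM in JUN AA and 1454 FPKM in JUN WT, and PRDX5 were 2-fold lower in JUN WT than in JUN AA. PRDX3 and SOD2 were 2-fold higher in JUN WT than in JUN AA, each by 1.06, and none of these 4 kept its call in every setting. Over all genes 6.65% were 2-fold higher there and 5.61% 2-fold lower. SOD2, mitochondrial superoxide dismutase, which inflammatory signals are known to induce, was at 82.2 FPKM in MRC5 cells, then 454 FPKM in iCAFs and 156 FPKM after JNKi. SOD3, the extracellular form, had 9.31, 6.34 and 28.4 FPKM in these libraries. The remaining enzymes of this list did not differ 2-fold in iCAFs against MRC5 or in iCAFs+JNKi against iCAFs, where 3.65% and 4.22% of all genes did. In iCAFs 12 of 16 were lower than in MRC5, at a median of -0.24 against -0.061 over all genes, of which 59.4% were lower. TXNIP, which binds and inhibits thioredoxin, was 2-fold lower with JNKi than in MRC5, at 41.7 against 87.2 FPKM, but not in every setting.

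SLC7A11 is also a target of ATF4, the factor of the amino acid response. Of 10 genes of that response, SLC3A2, ASNS, PSAT1, TRIB3, SESN2 and DDIT4 were 2-fold lower with JUN WT than with the empty vector and ATF3 was 2-fold higher, with a list median of -1.10. Over all genes 3.39% were 2-fold lower and 6.92% 2-fold higher there. SLC3A2, which encodes the partner chain of SLC7A11, went from 194 to 95.4 FPKM. In iCAFs against MRC5, where SLC7A11 was lower, the median of this list was 0.30 against -0.061 over all genes. None of the 10 was past 2-fold there, against 3.65% of all genes. ATF4 itself differed by -0.91 in JUN WT against control and by 0.20 in iCAFs against MRC5. The part of ATF4 in the SLC7A11 levels was not tested. CHAC1, which degrades glutathione, was 2-fold lower in JUN AA than in the control, at 20.7 against 48.0 FPKM. With JNKi it was 2-fold above both other libraries, at 168 FPKM against 54.3 FPKM in iCAFs and 39.3 FPKM in MRC5, and PSAT1 was 2-fold above MRC5. Of 7 genes that act with SQSTM1 in autophagy, GABARAPL1 was the only one past 2-fold in any comparison. Between 3.65% and 12.3% of all genes were past it in a comparison. GABARAPL1 was at 74.998 FPKM with the empty vector, 28.4 FPKM with JUN WT and 36.7 FPKM with JUN AA, and at 89.6, 123 and 319 FPKM in MRC5, iCAFs and iCAFs+JNKi.

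**Figure D4:**
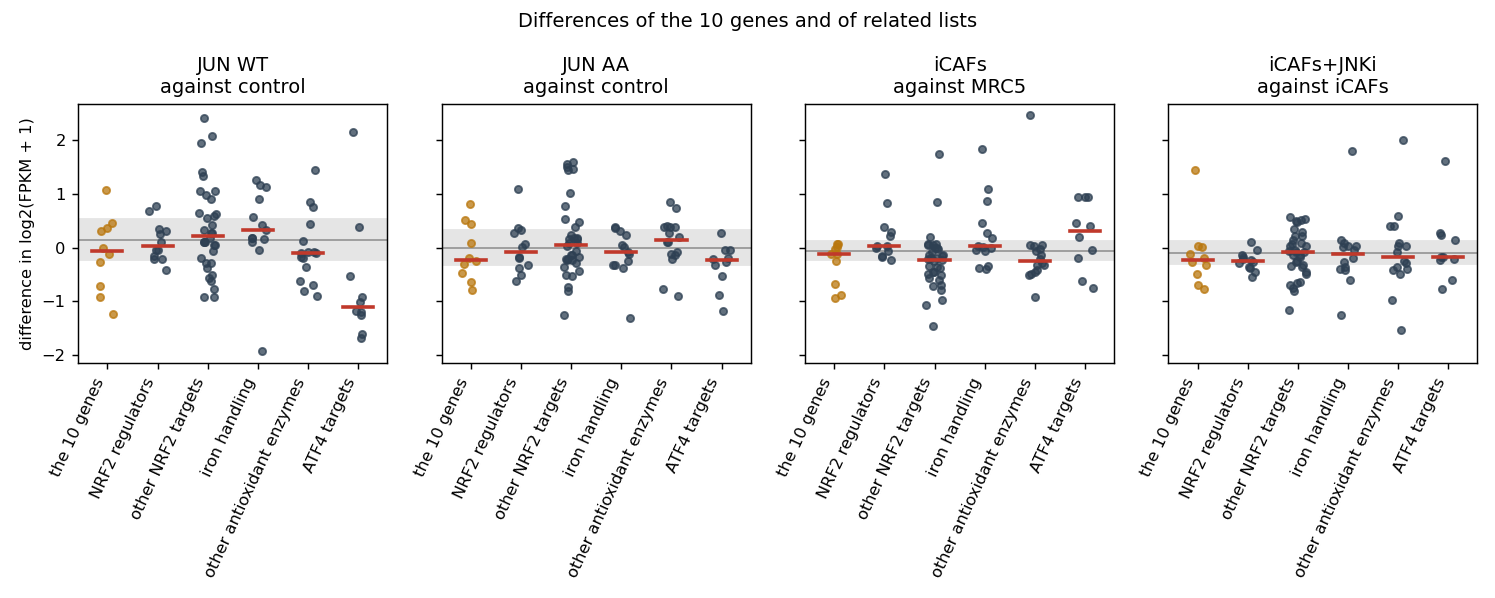
Difference in log2(FPKM + 1) for the 10 genes (amber) and for genes of 5 related lists that passed the filter (dark), in 4 comparisons. Red bars are list medians, the grey band spans the quartiles of all genes and the grey line is their median, and the lowest list median is that of the ATF4 targets in JUN WT against control, at -1.10.

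The genes most like FTL and HMOX1 were sought among the 5753 genes whose mean reached 5 FPKM in each table, by the largest absolute deviation over 4 differences. These were JUN WT and JUN AA against control, iCAFs against MRC5 and iCAFs+JNKi against iCAFs. TRIP6, IFFO1, SPATA20, HIST3H2A and LSS were nearest to FTL, within deviations of 0.18 to 0.28. KCNF1 was nearest to HMOX1 at a deviation of 0.47, followed by UACA, PKDCC, PDE5A and YPEL3 at 0.60 to 0.74. A gene with large differences has fewer genes near it by this measure, so these deviations cannot be ranked against those of FTL. KCNF1 shared the signs of all 4 HMOX1 differences, at -1.13, 0.045, -0.57 and 1.67 in the order given. No other member was among the genes nearest to FTL or HMOX1. The pattern of HMOX1 was then counted. Of the 5753 genes, 37 were 2-fold lower with JUN WT than with the empty vector and 2-fold higher in iCAFs+JNKi than in iCAFs. Among these, 3 were also below MRC5 in iCAFs and above the control with JUN AA. HMOX1 is included by construction. The share of genes meeting each condition alone was not counted, so these counts are only a description.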

How the data were processed

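RNA-seq libraries of MRC5 cells, 1 per condition, were grouped by the treatment named in the labels. The authors mapped reads to hg19 with hisat2 2.1.0 at default parameters and deposited FPKM per gene from StringTie 2.1.1, in a table for each experiment. The annotation and strand setting are not given in the sources used here. All 6 columns were matched to a library by title. Tables were normalised separately, so libraries were compared only within a table. Each table has 25370 rows, and of the 4 rows that share a symbol the one with the higher mean was kept.

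Differences of log2(FPKM + 1) were calculated using numpy 2.4.6 and pandas 2.3.3 under Python 3.11.15. The genes counted had a mean of 1 FPKM or more over the 3 libraries of a table, 10311 for JUN overexpression and 11780 for JNKi. As FPKM are not counts and there are no replicates, no count model and no test were used, and neither depth nor precision can be given. Low FPKM values gave a common ratio for the JNKi libraries, at 1.01 for iCAFs to MRC5, and no clear one for the JUN overexpression libraries. The procedure was tested on simulated data. Members and lists were chosen with earlier results of these data known. The rule for list genes took those past 2-fold and the largest rise and fall of each list at a mean of at least 5 FPKM; of the latter, not all are printed. NFE2L2, KEAP1, BACH1 and JUN were always named. Genes most like FTL and HMOX1 are the 5 nearest each. Positions and shared exons come from GENCODE on GRCh37, and promoter windows from RefSeq (GRCh38.p14), placed on GRCh37 by exact match. As alternatives, FPKM were rescaled to sum to 1000000, the pseudocount was 0.1, and the other settings were differences centred on the median gene, division by the upper quartile, rescaling without the 100 highest genes, the mean over members, summed rows of a symbol, pseudogene rows added to ferritin, and, for all genes, no filter or a mean of at least 5 FPKM. Figures were drawn with matplotlib 3.10.9.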

Additional observations from a re-analysis of the deposited data

How the results depend on the processing

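Shifts over 0.25 (log2), or over 1.5 times for counts, were treated as moves, since no replicate spread exists. Of 300 alternative values for the 60 member differences, 283 stayed within this limit, and all 17 that moved came from rescaling FPKM to the same sum, in the 2 comparisons with JUN AA. That rescaling shifted the median of all genes by -0.27 in JUN AA against control and by 0.28 in JUN WT against JUN AA. Member medians became -0.53 and 0.37 there. Under the same rescaling, tried for the lists after their values were seen, medians in JUN AA against control became -0.37 for NRF2 regulators, -0.25 for other NRF2 targets, -0.35 for iron handling, -0.16 for other antioxidant enzymes, -0.55 for ATF4 targets and -0.27 for autophagy receptors. In JUN WT against JUN AA they became 0.52, 0.58, 0.73, 0.21, -0.38 and 0.33 in the same order. Signs were the same in all settings for 52 of the 60 differences. Of the 5 member differences past 2-fold, 4 stayed past it in all settings, and GCLC in JUN WT did not, at 0.91 when centred. SLC7A11 in JUN WT passed it in 4 settings, reaching -1.10 with a pseudocount of 0.1. With rescaled FPKM, FTH1 passed it in both comparisons with JUN AA, at -1.09 against control and 1.08 for JUN WT against JUN AA. Counts of all genes moved too. Genes 2-fold higher in JUN WT against control, 714 as given, were 1229 with a pseudocount of 0.1, 436 when centred and 458 at a mean of 5 FPKM. In JUN AA 545 higher and 389 lower became 338 and 957 with rescaled FPKM, and the share of higher genes went from 58.4% to 26.1%. In JUN WT against JUN AA 686 higher and 578 lower became 1770 and 364. With JNKi against iCAFs the 265 higher became 411 with rescaled FPKM. With a pseudocount of 0.1, lower genes went from 350 to 527 in JUN WT, from 389 to 629 in JUN AA, from 202 to 356 in iCAFs and from 232 to 386 with JNKi against iCAFs. Among genes 2-fold different, the share that was higher went from 67.1% to 45.5% in JUN WT when centred, from 54.3% to between 33.3% (centred) and 82.9% (rescaled) in JUN WT against JUN AA, from 53.3% to at most 65.3% with JNKi against iCAFs and from 48.1% to at most 65.9% with JNKi against MRC5. For JNKi against MRC5, 386 higher became 581 with rescaled FPKM, and 416 lower became 706 with a pseudocount of 0.1 and 267 when centred. A mean of at least 5 FPKM, which tests fewer genes, left 438 higher in JUN WT against JUN AA, 128 lower in iCAFs, 169 higher and 147 lower with JNKi against iCAFs and 263 lower against MRC5. Summed rows left member levels the same, and adding pseudogene rows changed FTH1 by at most 0.211 FPKM. No paired analysis was possible because each condition has 1 library. Sequencing depth is unknown, so low values such as those of GCLC, GCLM and BACH1 have no stated precision.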
